A study of Mus musculus with 8 samples.

Results

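The lipogenic program under the transcription factor SREBP1 was examined in mouse liver through *Srebf1*, the gene that encodes SREBP1, and 8 genes that are widely used as its readout: *Acly*, *Acaca*, *Fasn*, *Elovl6*, *Scd1*, *Me1*, *Thrsp* and *Pnpla3*. Members were found by an exact match of the gene symbol in the expression table, with no threshold on a measured level. The table lists 14506 genes, 8 of the 9 members are among them, and all 8 passed the filter on low values that left 11174 genes for testing. *Pnpla3* was not analysed here.

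Whole livers came from 4 *Rragc*+/+ mice and 4 *Rragc* S74N/+ mice, on a C57BL/6 background and on standard chow. *Rragc* encodes RagC, a small GTPase that signals amino acid and glucose sufficiency to the kinase complex mTORC1. The S74N allele, knocked into exon 1 in every cell of the body together with silent changes, holds RagC in its active, GDP-like state, and mice were heterozygous for it, so that livers of that genotype carry the mutation in hepatocytes and in all other cells alike. Replicates 1 to 3 of *Rragc*+/+ were 3 months old and replicate 4 was 2.5 months old, while *Rragc* S74N/+ replicates 1 and 2 were 3 months old, replicate 3 was 2.5 months old and replicate 4 was 2 months old. Sex, feeding state and the hour at which livers were collected are not given in the sources used here. Since a changed codon leaves the transcript in place, expression of *Rragc* is no check on the genotypes.

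Hepatocytes turn surplus carbohydrate into fatty acids. Citrate leaves the mitochondria, is cleaved to acetyl-CoA, carboxylated to malonyl-CoA, built into palmitate, then elongated and desaturated before it is stored as triglyceride. SREBP1 is made as a membrane-bound precursor, is cut free in the Golgi, and then activates most genes of this chain, often at sites that it shares with the CCAAT-binding factor NF-Y and with Sp1. In liver, feeding and insulin raise the SREBP1c transcript and the processing of the protein, in part through mTORC1, and fasting lowers both. Levels of these transcripts therefore move strongly with the last meal and with the time of day.

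Depth was similar between libraries (4313076 to 6632108 reads in listed genes per liver), and by the labels every library is a mouse of its own. The 28 pairs of libraries differed by far more than counting noise (chi-square per degree of freedom between 16.2 and 112). Hepatocyte markers summed to between 260202 and 475673 normalized reads in every liver, and 3 of 8 adipocyte markers were listed, with sums between 91.9 and 194. *Rragc* S74N/+ replicate 4 stood apart. Its mean log2 level over 10 genes that are higher in male than in female liver was 8.80, against 11.2, 10.8 and 11.1 in mutant replicates 1 to 3 and 11.4 to 11.5 in *Rragc*+/+ livers, so that the genotypes did not overlap, and *Cyp17a1*, a steroid hydroxylase that is higher in female liver, stood at 799 against at most 35.6, although the Y-linked gene *Ddx3y* was present in all 8 livers at 315 to 533. Both mice aged 2.5 months, *Rragc*+/+ replicate 4 and *Rragc* S74N/+ replicate 3, had mean log2 levels of 6.88 and 7.21 over 6 clock genes that peak near dusk, against 4.90 to 5.91 in the others. *Nr1d1*, *Nr1d2*, *Dbp* and *Per3* were highest in these livers. *Tef* was higher in *Rragc*+/+ replicate 1 (296) than in replicate 4 (272). *Per2* was highest in *Rragc* S74N/+ replicate 1 (41.3) and *Rragc*+/+ replicate 3 (29.7). The part of either difference in the results was not tested, and directions that changed without one of these livers are given below or with the other settings.

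Promoter windows were available for 7 of the 8 listed members, 10 windows in all, each from 250 bases before to 50 bases after a RefSeq start site on GRCm38.p6. Shown here, 5′ to 3′ on the coding strand, are those of *Srebf1* (chr11:60210422-60210721, the one of its 3 windows with both kinds of box marked here), of *Fasn* (chr11:120824498-120824797) and *Thrsp* (chr7:97417501-97417800), the pair of members with the highest correlation across livers, and of *Acly* (chr11:100527951-100528250), with 4 GC boxes. All 4 lie on the minus strand. Capitals mark CCAAT boxes (CCAAT or its reverse complement) and GC boxes (GGGCGG or its reverse complement).
Srebf1: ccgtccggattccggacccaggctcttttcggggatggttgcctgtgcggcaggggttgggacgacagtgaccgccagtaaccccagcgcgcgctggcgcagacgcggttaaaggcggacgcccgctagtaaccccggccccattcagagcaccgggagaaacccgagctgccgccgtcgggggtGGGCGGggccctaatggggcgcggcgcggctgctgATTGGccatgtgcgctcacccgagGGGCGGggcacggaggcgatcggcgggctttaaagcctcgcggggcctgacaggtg
Fasn: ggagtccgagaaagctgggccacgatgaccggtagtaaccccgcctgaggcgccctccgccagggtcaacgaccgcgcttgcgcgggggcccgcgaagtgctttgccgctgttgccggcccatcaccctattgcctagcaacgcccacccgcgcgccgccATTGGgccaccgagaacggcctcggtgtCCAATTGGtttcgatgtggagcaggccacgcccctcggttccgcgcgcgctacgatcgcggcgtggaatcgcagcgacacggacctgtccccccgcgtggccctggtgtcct
Thrsp: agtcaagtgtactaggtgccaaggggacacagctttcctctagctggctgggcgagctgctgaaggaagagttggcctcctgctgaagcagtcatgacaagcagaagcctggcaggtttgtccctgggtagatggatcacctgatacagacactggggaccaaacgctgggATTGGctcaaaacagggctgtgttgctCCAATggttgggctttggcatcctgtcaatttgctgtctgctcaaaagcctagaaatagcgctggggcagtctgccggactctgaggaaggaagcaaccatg
Acly: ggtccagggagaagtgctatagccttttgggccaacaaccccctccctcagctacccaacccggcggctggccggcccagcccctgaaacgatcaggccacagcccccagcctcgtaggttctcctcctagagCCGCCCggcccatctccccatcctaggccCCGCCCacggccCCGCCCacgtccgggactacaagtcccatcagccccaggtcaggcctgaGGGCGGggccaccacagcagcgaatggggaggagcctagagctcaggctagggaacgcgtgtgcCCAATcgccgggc
On both strands, CCAAT was found in 6 of the 10 member windows and in 37.4% of all 32817 windows, and GGGCGG was found in 4 of 10 and in 35.6%. *Thrsp* held 2 CCAAT boxes, at 52 and 79 bases before the start site, and *Fasn* held 3, of which 2 overlap as CCAATTGG. TCACNCCAC, the core letters of a sterol response element, was in none of the 10 windows and in 1.24% of all windows. The E-box CACGTG, the core of sites for ChREBP and USF, was likewise in none of the 10 and in 7.15% of all windows. A match describes letters only, and sites farther from the start were not searched.

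Levels spanned a wide range between genes. Libraries were made by priming at the 3′ end of messenger RNA, so that reads do not scale with transcript length, and normalized read counts of different genes can be set side by side. *Scd1* stood at a mean of 22065 over the 8 livers and took 0.167% to 0.534% of all recovered reads in a liver. Below it came *Fasn* at 2967, *Acly* at 969, *Thrsp* at 659, *Me1* at 488, *Acaca* at 299.9, *Elovl6* at 134 and *Srebf1* at 99.5. Apart from *Srebf1*, each value of a member rested on 81 reads or more. Smaller genes overlap *Srebf1*, *Acly*, *Acaca*, *Elovl6* and *Me1* on the same strand, so reads at shared bases are uncertain. The transcript of the regulator was thus 29.8 times less abundant than that of *Fasn* and 222 times less abundant than that of *Scd1*. Neighbours in this order were compared within livers with an exact sign-flip test, two-sided, adjusted over the 7 neighbouring pairs. The order was taken from the mean levels of the same 8 livers, so these p-values do not cover the choice of pairs. *Scd1* exceeded *Fasn*, *Fasn* exceeded *Acly* and *Acaca* exceeded *Elovl6* in 8 of 8 livers (adjusted p = 0.0182 each, exact), and *Me1* exceeded *Acaca* in 7 of 8 (adjusted p = 0.0273, exact). The order of *Acly* and *Thrsp* (exact adjusted p = 0.109), of *Thrsp* and *Me1* (exact adjusted p = 0.461) and of *Elovl6* and *Srebf1* (exact adjusted p = 0.0766) was within the spread between livers.

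*Srebf1*, the regulator, occupies 60199089 to 60222581 on the minus strand of chromosome 11 (GRCm38). The gene has 3 coding transcripts with 3 different starts and 2 different ends, and a count per gene does not tell SREBP1a from SREBP1c. Its normalized read count was, in order of replicate, 53.1, 35.5, 130.1 and 55.1 in *Rragc*+/+ livers and 241, 16.9, 29.0 and 235 in *Rragc* S74N/+ livers. The mutant livers held both the 2 highest and the 2 lowest values of all 8, so that the *Rragc*+/+ range lay wholly inside the mutant range. Means were 68.5 ± 42.0 and 131 ± 124 (SD, n = 4 each), and the log2 fold change, mutant against wild type on the scale of log2(normalized count + 1), was 0.27 (standard error, SE, 0.75, 95% interval -1.36 to 1.90). This is within the spread between livers (adjusted p = 0.944 by limma, Benjamini-Hochberg over all tested genes, and p = 0.857 in an exact two-sided permutation test, whose smallest possible value is 0.0286). Between 19 and 288 reads lay behind each value, and the highest liver exceeded the lowest 14.3-fold. The standard deviation within genotype, 1.496 on the log2 scale, was larger than that of 98.1% of tested genes. Without *Rragc* S74N/+ replicate 1 the fold change was -0.30, without replicate 4 it was -0.29, and without replicate 2 it was 0.95. Tests on recovered reads, which weigh high values more, gave 0.94 with DESeq2 and 0.96 with edgeR, neither past the threshold.

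The first 3 steps of fatty acid synthesis are carried out by ATP citrate lyase (*Acly*, chromosome 11, 100476353 to 100528000, minus strand), acetyl-CoA carboxylase 1 (*Acaca*, chromosome 11, 84129672 to 84401651, plus strand) and fatty acid synthase (*Fasn*, chromosome 11, 120805846 to 120824547, minus strand). *Acly*, which supplies cytosolic acetyl-CoA, stood, in the same order, at 880.0, 496, 509 and 1279 in *Rragc*+/+ livers and at 994, 714, 575 and 2305 in *Rragc* S74N/+ livers. The 2-month-old mutant liver was the highest of the 8, and the other 3 mutant values lay between the *Rragc*+/+ extremes. With means of 791 ± 371 and 1147 ± 792 (SD, n = 4 each), the log2 fold change was 0.43 (SE 0.41, 95% interval -0.45 to 1.31, limma adjusted p = 0.852, exact permutation p = 0.486). It was 0.02 without the 2-month-old liver.

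*Acaca*, which makes malonyl-CoA, stood at 328, 182, 266 and 452 in *Rragc*+/+ livers and at 219, 403, 254 and 294 in *Rragc* S74N/+ livers. Every mutant value lay between the lowest and the highest wild-type value. Means of 307 ± 114 and 293 ± 80.2 (SD, n = 4 each) gave a log2 fold change of -0.03 (SE 0.29, 95% interval -0.65 to 0.59, limma adjusted p = 0.984, exact permutation p = 0.943). It was 0.18 without *Rragc*+/+ replicate 4 and 0.02 without *Rragc* S74N/+ replicate 3. *Acaca* varied least among the 8 members, with a 2.48-fold gap between the highest and the lowest liver.

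*Fasn*, the enzyme that builds palmitate, stood at 3484, 1797, 2102 and 6824 in *Rragc*+/+ livers and at 3336, 2137, 1579 and 2475 in *Rragc* S74N/+ livers. *Rragc*+/+ replicate 4, aged 2.5 months, stood alone at the top, and the remaining 7 livers overlapped between genotypes. Means were 3552 ± 2302 and 2382 ± 735 (SD, n = 4 each), with a log2 fold change of -0.42 (SE 0.37, 95% interval -1.22 to 0.38, limma adjusted p = 0.850, exact permutation p = 0.457). Without that liver the fold change was -0.04.

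Palmitate is elongated to stearate by *Elovl6* (chromosome 3, 129532355 to 129638495, plus strand) and desaturated by stearoyl-CoA desaturase 1 (*Scd1*, chromosome 19, 44394455 to 44407879, minus strand). *Elovl6* stood at 139, 75.8, 204 and 148 in *Rragc*+/+ livers and at 146, 115, 92.5 and 152 in *Rragc* S74N/+ livers, with every mutant value inside the wild-type range. Its means of 141 ± 52.4 and 126 ± 27.8 (SD, n = 4 each) differed by -0.11 on the log2 scale (SE 0.30, 95% interval -0.76 to 0.55, limma adjusted p = 0.944, exact permutation p = 0.8), and by 0.03 without *Rragc* S74N/+ replicate 3. *Scd1* stood at 28693, 9625, 16767 and 26044 in *Rragc*+/+ livers and at 20357, 30651, 18549 and 25832 in *Rragc* S74N/+ livers. The lowest *Scd1* value was in *Rragc*+/+ replicate 2 and the highest in *Rragc* S74N/+ replicate 2, both 3 months old, and the genotypes overlapped. Its means of 20282 ± 8753 and 23847 ± 5492 (SD, n = 4 each) gave a log2 fold change of 0.33 (SE 0.33, 95% interval -0.39 to 1.04, limma adjusted p = 0.853, exact permutation p = 0.486). Leaving out *Rragc*+/+ replicate 2 brought this to 0.01.

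Malic enzyme 1 (*Me1*, chromosome 9, 86581371 to 86695953, minus strand) supplies NADPH for the synthase, and *Thrsp* (chromosome 7, 97412938 to 97417730, minus strand) encodes Spot 14, a small nuclear and cytosolic protein induced by thyroid hormone and carbohydrate that promotes lipogenesis. *Me1* stood at 698, 248, 431 and 783 in *Rragc*+/+ livers and at 465, 526, 480.3 and 273 in *Rragc* S74N/+ livers. The mutant values again lay inside the wild-type range, and the 2-month-old liver was the lowest of the mutants. Means of 540.1 ± 246 and 436 ± 112 (SD, n = 4 each) gave a log2 fold change of -0.22 (SE 0.34, 95% interval -0.95 to 0.52, limma adjusted p = 0.896, exact permutation p = 0.629), which was 0.008 without *Rragc*+/+ replicate 4. *Thrsp* stood at 887, 152, 579 and 1844 in *Rragc*+/+ livers and at 568, 306, 430.15 and 504 in *Rragc* S74N/+ livers. The mutant livers were close together and lay between the wild-type extremes, which were 12.1-fold apart. Means of 866 ± 719 and 452 ± 113 (SD, n = 4 each) gave a log2 fold change of -0.48 (SE 0.56, 95% interval -1.68 to 0.72, limma adjusted p = 0.866, exact permutation p = 0.543). On recovered reads it was -0.93 with both DESeq2 and edgeR, not past the threshold. *Thrsp* rested on single wild-type livers: the fold change was 0.04 without *Rragc*+/+ replicate 4 and -1.15 without *Rragc*+/+ replicate 2. The latter was the 1 case in which any member reached an unadjusted p under 0.05 in a fit without 1 liver, and it was not past the adjusted threshold (limma adjusted p = 0.786).

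**Figure D1:**
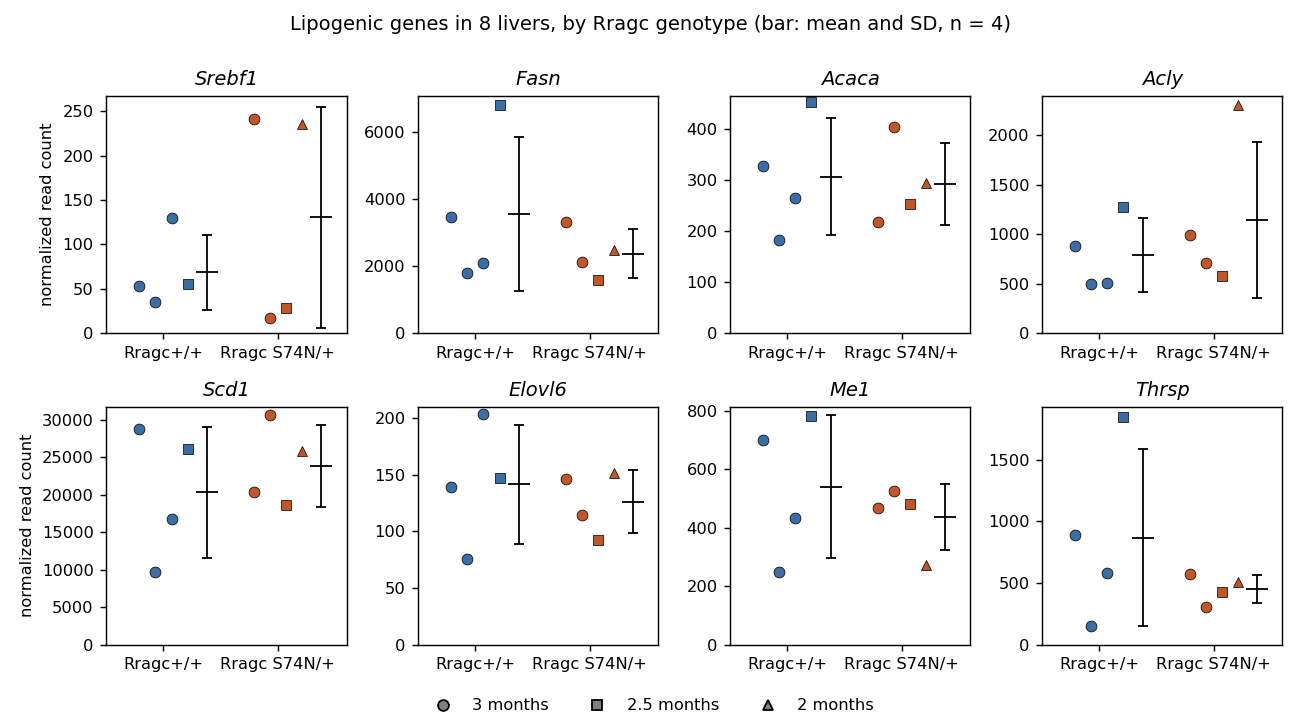
Normalized read counts of the 8 listed lipogenic genes in each liver (points, linear axes from 0), by *Rragc* genotype, with the mean and SD of 4 livers as a bar beside each group and the shape of the point giving age. The genotypes overlap for every gene, *Srebf1* in the mutants splits between 241 and 235 on the one hand and 16.9 and 29.0 on the other, and the 2.5-month-old *Rragc*+/+ liver is the highest for *Fasn*, *Acaca*, *Me1* and *Thrsp*.

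Across the group, 0 of 8 members passed the adjusted threshold of 0.05 in limma, against 0.00895% of all tested genes, and 0 of 8 had an unadjusted p under 0.05, against 5.17% of all tested genes. No member separated the genotypes without overlap, which 2.94% of tested genes did. DESeq2 and edgeR likewise called 0 of the 8. The median log2 fold change of the members was -0.07, with 3 values above and 5 below 0, and that of all tested genes was 0.01. Each of the 8 intervals covered a change of 0 and also sizeable ones: the upper bound reached 1.90 on the log2 scale for *Srebf1* and 0.38 for *Fasn*, the largest and the smallest of the 8, and the lower bound reached -1.68 for *Thrsp* and -0.39 for *Scd1*. All 8 members had a standard deviation within genotype above the median of tested genes, 0.453 on the log2 scale. In RNA from whole liver, fewer hepatocytes and less RNA per hepatocyte cannot be told apart.

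Age was unequal between the genotypes, and several directions turned with it. Among the 5 mice aged 3 months, the log2 fold changes were 0.05 for *Srebf1*, 0.48 for *Acly*, 0.24 for *Acaca*, 0.18 for *Fasn*, 0.004 for *Elovl6*, 0.58 for *Scd1*, 0.23 for *Me1* and -0.04 for *Thrsp*, none past the threshold. *Fasn*, *Acaca*, *Elovl6* and *Me1* thus changed sign when the younger mice were left out. In the single pair of 2.5-month-old mice, which gives no test, the mutant liver was below the wild-type liver for all 8 members, by -2.11 on the log2 scale for *Fasn*, -2.10 for *Thrsp*, -1.15 for *Acly*, -0.90 for *Srebf1*, -0.83 for *Acaca*, -0.70 for *Me1*, -0.67 for *Elovl6* and -0.49 for *Scd1*. Age and genotype cannot be told apart for the 2-month-old mouse, which has no wild-type counterpart.

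**Figure D2:**
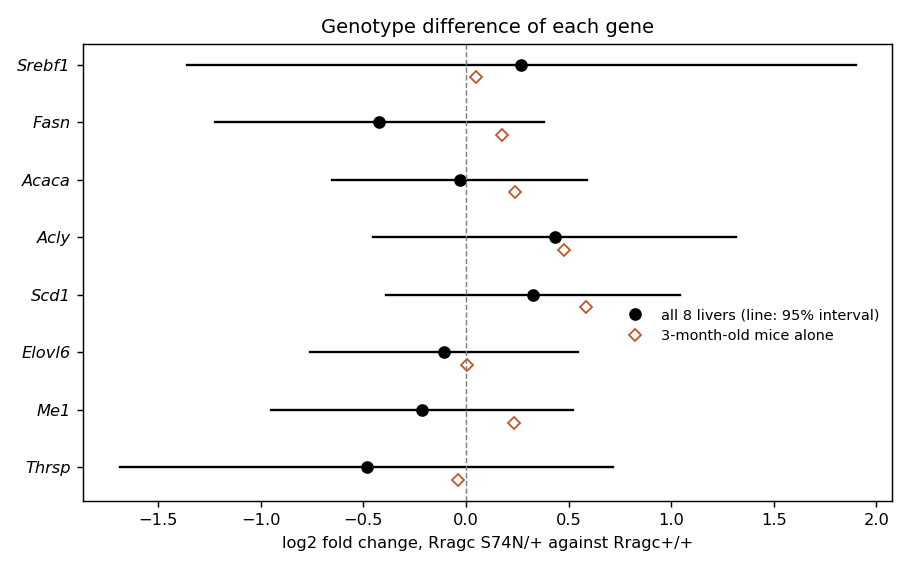
Log2 fold change of *Rragc* S74N/+ against *Rragc*+/+ livers for each of the 8 listed members, with filled points and 95% intervals from all 8 livers and open diamonds from the 5 mice aged 3 months. Every interval crosses 0, and the diamonds of *Fasn*, *Acaca*, *Elovl6* and *Me1* lie on the other side of 0 from the filled points.

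Over all 8 livers, the enzymes and *Thrsp* had positive correlations with each other, and *Srebf1* had no common sign with them. Some correlations among the enzymes and *Thrsp* were close to 0 or turned negative when 2 livers were left out. For the 21 pairs among *Acly*, *Acaca*, *Fasn*, *Elovl6*, *Scd1*, *Me1* and *Thrsp*, Pearson's r of log2 levels was positive in 21, with a median of 0.59 and a lowest value of 0.03 (*Acly* with *Me1*). Over the 7 pairs with *Srebf1* it was positive in 5, with a median of 0.24. The difference between these medians was not tested, and all pairs share the same 8 livers. Closest were *Fasn* and *Thrsp* (r = 0.85, exact permutation p = 0.00905, rho = 0.76, exact permutation p = 0.0368) and *Acaca* and *Scd1* (r = 0.83, exact permutation p = 0.00754, rho = 0.83, exact permutation p = 0.0154). Neither passed adjustment over the 28 pairs (adjusted p = 0.127 for r and 0.214 for rho, both exact), and 0 of 28 pairs did. Without the 2 livers farthest from the median of the first gene, r was 0.50 for *Fasn* and *Thrsp* and 0.81 for *Acaca* and *Scd1*, but 3 of the 21 pairs turned negative, the lowest being *Acaca* with *Thrsp* (-0.32). Without the 2 livers farthest in the second gene, 8 of 21 turned negative, 5 of them pairs with *Elovl6*, down to -0.87 for *Scd1* with *Elovl6*. The common sign of the 21 pairs was thus not kept in every pair without such livers. Leaving out the extremes of a gene also narrows its range, so these values do not tell what the sign rests on. Centred within genotype, r was 0.84 for *Fasn* and *Thrsp* and 0.89 for *Acaca* and *Scd1*. *Me1* with *Thrsp* (r = 0.77, exact permutation p = 0.025) and *Acaca* with *Me1* (r = 0.71, exact permutation p = 0.0463) were the remaining pairs with an unadjusted p under 0.05 for r. For rho, 6 of the 28 pairs were under 0.05 before adjustment, among them *Fasn* with *Acly* (rho = 0.76, exact permutation p = 0.0368) and *Scd1* with *Me1* (rho = 0.74, exact permutation p = 0.0458), and *Me1* with *Thrsp* was not (rho = 0.60, exact permutation p = 0.132). The 5 livers aged 3 months are too few for a correlation of their own.

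*Srebf1* itself was closest to *Elovl6* (r = 0.65, exact permutation p = 0.0774, rho = 0.74, exact permutation p = 0.0458, adjusted over 7 pairs 0.542 and 0.321). Its r was 0.54 with *Acly*, which became -0.02 without the 2 livers farthest from the median of *Srebf1*, 0.28 with *Thrsp* and 0.24 with *Fasn* (exact permutation p = 0.584). With *Scd1* it was 0.02, with *Me1* -0.26 and with *Acaca* -0.27, and 0 of the 7 relations passed an unadjusted p under 0.05 for r. The 2 mutant livers with the most *Srebf1*, replicates 1 and 4, had *Fasn* of 3336 and 2475, and the *Rragc*+/+ liver with the most *Fasn*, 6824, had *Srebf1* of 55.1. *Rragc* S74N/+ replicate 2 had the lowest *Srebf1*, 16.9, and the highest *Scd1*, 30651. When *Rragc* S74N/+ replicate 4 was left out, the 21 pairs without *Srebf1* remained positive, with a median of 0.67 and a lowest value of 0.35, and the 7 pairs with *Srebf1* had a median of 0.25. In that set of 7 livers *Acly* was closer to *Fasn* (r = 0.92, against 0.54 with all livers).

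**Figure D3:**
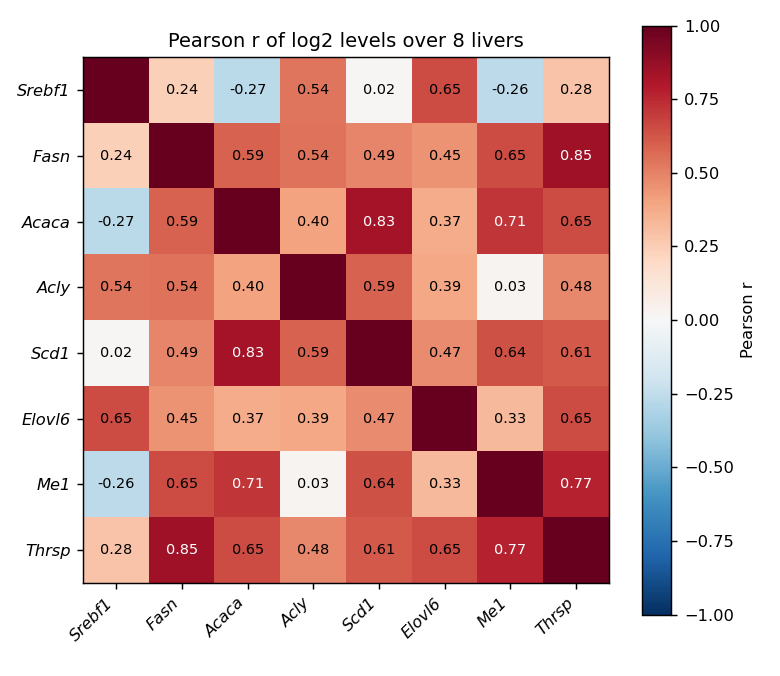
Pearson's r between the log2 levels of each pair of members over the 8 livers, printed in each cell and coloured from -1 (blue) to 1 (red). The 21 pairs among the enzymes and *Thrsp* are positive over these 8 livers, from 0.03 to 0.85, whereas the first row and column, *Srebf1*, run from -0.27 with *Acaca* to 0.65 with *Elovl6*.

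Per liver, the mean z score of the 8 members was, in order of replicate, 0.50, -1.46, -0.02 and 1.09 in *Rragc*+/+ livers and 0.23, -0.11, -0.62 and 0.39 in *Rragc* S74N/+ livers. The wild-type livers held both ends. *Rragc*+/+ replicate 2 was the lowest of the 8 livers for *Acaca*, *Acly*, *Scd1*, *Elovl6*, *Me1* and *Thrsp*. Outside the members, the tested genes whose levels followed this score most closely were *Pcdh7* (r = 0.97, a protocadherin), *Tlcd1* (0.97, a membrane protein of lipid composition), *Mfsd6* (0.94), *Prcp* (0.94, a carboxypeptidase) and *Chchd6* (0.94, a mitochondrial cristae protein), and those most opposed to it were *Porcn* (-0.94, the Wnt acyltransferase), *Sertad2* (-0.93), *Atf7ip* (-0.93), *Foxo4* (-0.92) and *Ptpn12* (-0.90). These are the extremes of 11166 genes over 8 livers and are given as a description. Some were low: *Pcdh7* ranged from 1.87 to 29.9 normalized reads and *Prcp* from 3.74 to 27.1, both lowest in *Rragc*+/+ replicate 2.

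The proteins that hold, cut and accompany SREBP1 were given by a list of 16 regulators, of which 14 were tested. Of these, 0 had an unadjusted p under 0.05 in either direction, against 5.17% of all tested genes. Their median log2 fold change was 0.04. *Scap*, the escort of the SREBP precursors, had 0.49, *Insig1* and *Insig2*, which retain them in the endoplasmic reticulum, had 0.03 and -0.19, and *Mbtps2*, a protease that frees them, had 0.51. *Srebf2*, which encodes the factor of cholesterol synthesis, had 0.15, *Mlxipl*, which encodes the carbohydrate-sensing factor ChREBP, had -0.07, and *Nr1h3*, which encodes liver X receptor alpha, had -0.13. *Rxra*, its partner, had -0.32, and *Lpin1*, a phosphatidate phosphatase and nuclear coregulator, had -0.28. No list gene outside the members passed the adjusted threshold either, and the smallest limma adjusted p among them was 0.846.

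*Insig1*, itself an SREBP target, followed *Srebf1* across livers, with r = 0.90 over 8 livers and 0.88 without *Rragc* S74N/+ replicate 4. Its normalized read counts were 432, 261, 487 and 537 in *Rragc*+/+ livers and 778, 268, 229.6 and 663 in *Rragc* S74N/+ livers, so that the mutant livers high in *Srebf1* were also the highest in *Insig1*. *Mid1ip1*, a relative of *Thrsp* whose protein binds acetyl-CoA carboxylase, had r = 0.75 with *Srebf1* and varied 13.9-fold, at 30.8, 61.7, 93.4 and 14.9 in *Rragc*+/+ and 139, 41.8, 14.5 and 201 in *Rragc* S74N/+ livers. *Idh1*, a cytosolic source of NADPH, had r = 0.79 with *Srebf1* and varied 16.0-fold. Without *Rragc* S74N/+ replicate 4, the highest liver for both *Mid1ip1* and *Idh1*, r with *Srebf1* was 0.64 and 0.71. *Mvd* and *Fdps*, both of cholesterol synthesis, had r of 0.88 and 0.81 with *Fasn*, and of 0.06 and 0.11 with *Srebf1*. Other genes were close to both, with r of 0.72 with *Srebf1* and 0.80 with *Fasn* for *Lpin1*, and of 0.61 with *Fasn* for *Insig1*. The list genes were picked here for their r, which is a description over 8 livers. Hepatocyte markers took both signs with *Srebf1*, with r of 0.82 for the urea cycle gene *Cps1*, 0.73 for *Fgb*, 0.58 for *Alb*, 0.57 for *Hnf4a*, 0.05 for *Ttr*, -0.57 for *Apob*, -0.61 for *Apoa1* and -0.65 for *Serpina1a*, and the part of hepatocyte content in these values was not tested.

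**Figure D4:**
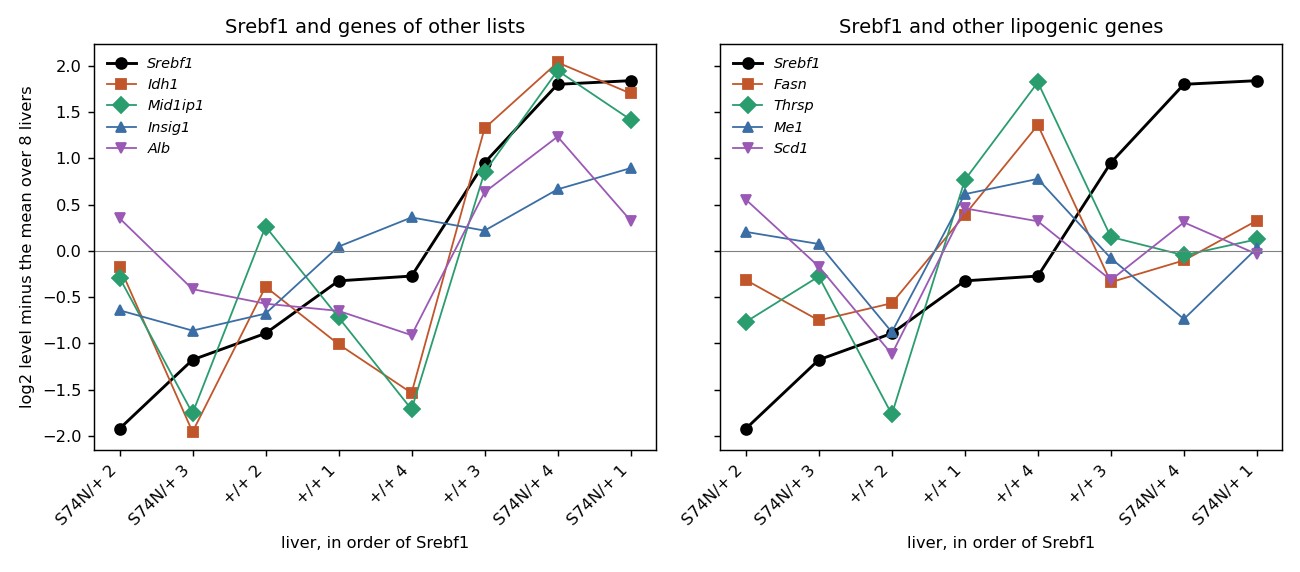
Log2 levels minus the mean over 8 livers, with livers ordered from the lowest to the highest *Srebf1* (black circles in both panels). *Idh1*, *Mid1ip1* and *Insig1* end high where *Srebf1* is high (left, with *Alb*), while *Fasn*, *Thrsp*, *Me1* and *Scd1* (right) peak in other livers, *Fasn* and *Thrsp* in *Rragc*+/+ replicate 4.

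The 10 genes for glucose entry, NADPH and acetyl-CoA supply had a median log2 fold change of 0.11. At an unadjusted p under 0.05, 0 were higher and 1 was lower in the mutant, against 2.37% and 2.8% of all tested genes. That gene was *Tkt*, a transketolase of the pentose phosphate pathway (-0.72). The extremes were otherwise *Pklr*, liver pyruvate kinase (-0.41), *Acss2*, which makes acetyl-CoA from acetate (0.85), and *Idh1* (0.80). Of 16 other tested genes of fatty acid and triglyceride metabolism, 3 were higher and 2 lower at that level, against 2.37% and 2.8% of all tested genes. The median of the 16 was 0.03. The largest positive values were those of the elongase *Elovl5* (0.89) and the lipase *Pnpla2* (0.71), and the largest negative values were those of the acyltransferase *Gpam* (-0.89) and the lipid droplet coat gene *Plin2* (-0.89). *Acacb*, which encodes the mitochondrial acetyl-CoA carboxylase, had 0.48, and *Mid1ip1* had 0.66. The desaturases had opposite signs, with 0.68 for *Fads1* and -0.80 for *Fads2*, whose genotypes did not overlap. Of 11 genes of cholesterol synthesis and uptake under SREBP2, 10 had negative values, as did 5437 of all 11174 tested genes. The median of the 11 was -0.26. At an unadjusted p under 0.05, 1 was lower, *Mvd* (-1.25), against 2.8% of all tested genes. Its genotypes did not overlap, which held for 2.94% of tested genes. *Fdps* had -0.57, *Lss* -0.05 and *Idi1* 0.25.

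Genes that mark the state of the liver were read beside the members. Of 10 tested fasting response genes, 3 had an unadjusted p under 0.05 and were higher in the mutant, against 2.37% of all tested genes, with a median of 0.43 against 0.01 for all tested genes. They were *Igfbp1*, an insulin-suppressed secreted binding protein (2.04), the fatty acid hydroxylase gene *Cyp4a14* (1.99) and *Pck1*, a gluconeogenic enzyme (1.18), while *Angptl4* had -0.47 and *Cpt1a* -0.19. *Igfbp1* stood at 275, 235, 80.6 and 168 in *Rragc*+/+ and at 1191, 338, 279 and 2252 in *Rragc* S74N/+ livers, highest in the same mutant livers, replicates 1 and 4, in which *Srebf1* was highest. The genotypes overlapped for the other 2 genes. *Pck1* stood at 425, 648, 986 and 802 in *Rragc*+/+ and at 1999, 823, 849 and 4095 in mutant livers. *Cyp4a14* stood at 386, 1835, 765 and 130 in *Rragc*+/+ and at 2291, 1515, 1328 and 3868 in mutant livers. Mutant replicate 4 was the highest liver for all 3 genes. Clock genes gave medians of 0.03 (4 tested, peaking near dawn, from *Clock* at -0.36 and *Cry1* at -0.12 to *Nfil3* at 0.18 and *Arntl* at 0.68) and -0.21 (6 tested, peaking near dusk, from *Per3* at -1.18 and *Nr1d1* at -0.33 to *Per2* at 0.14 and *Nr1d2* at 0.54). Of these 10 genes, 0 had an unadjusted p under 0.05, against 5.17% of all tested genes. The 8 hepatocyte markers had a median of 0.31, from *Apob* (-0.56) and *Apoa1* (-0.33) to *Alb* (0.75) and *Cps1* (0.87), also with 0 at that level. *Fabp4* and *Lipe*, the adipocyte markers tested, had 0.24 and 0.33. The 10 male-biased genes all had negative values, as did 5437 of all 11174 tested genes. Their median was -0.97, and 4 had an unadjusted p under 0.05, against 2.8% of all tested genes lower at that level. They ran from *Elovl3* (-1.96) and *Cyp7b1* (-1.55) to *Ugt2b1* (-0.38) and *Cyp4a12a* (-0.21). *Cyp17a1*, the female-biased gene tested, had 2.42. Mutant replicate 4 was the lowest liver for *Elovl3*, at 102 against 2544 to 3709 in the other mutants and 4105 to 5978 in *Rragc*+/+ livers. It was also the lowest for *Cyp7b1* (62.0) and the highest for *Cyp17a1* (799), whereas *Mup20* was lowest in mutant replicate 2 (6881). The part of mutant replicate 4 in these fold changes was not tested. The part of feeding, hour, sex-biased expression and hepatocyte content in the levels of the lipogenic genes was not tested.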

How the data were processed

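RNA of 8 livers was sequenced with a 3′ end kit (QuantSeq). The authors used TopHat2 2.0.10, Bowtie 1.0.0 and SAMtools 0.1.19 to align reads to GRCm38, counted them by strand with HTSeq 0.6.1 on a GENCODE annotation, and scaled them by DESeq. The deposited signal is the normalized read count of each gene, and 100% of values were whole reads after rescaling (tolerance 0.001). No molecular identifiers are stated, so intervals over reads would cover counting error only. Groups and ages came from the labels.

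The effect of genotype was fitted by limma 3.58.1 (R 4.3.3, mean-variance trend) on log2(value + 1) for the 11174 genes whose mean reached 10, with Benjamini-Hochberg adjustment at 0.05. Such fold changes understate those of low genes. DESeq2 1.42.0 and edgeR 4.0.16 on recovered reads, other pseudocounts, filters, scalings and age terms were alternatives. The limma fit was tested on simulated counts. Replicates are separate mice, and replicate numbers only name them. Promoter sequences are from RefSeq on GRCm38.p6 and gene coordinates from GENCODE M21, which holds 14458 of the listed names.

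Members and lists were chosen with earlier results of these data known. Named were the members, 8 set regulators and relatives, the 2 highest and 2 lowest fold changes of each list, and the 5 genes most and least like the members. A few genes of the lists are not reported here. Other genes, and the relations without the 2-month-old liver, were chosen after their values were seen.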

Additional observations from a re-analysis of the deposited data

How the results depend on the processing

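Under the 12 other settings and with each liver left out in turn, 0 of 8 members passed the adjusted threshold (smallest adjusted p 0.812 and 0.411). The median log2 fold change of the members ranged from -0.13 to 0.20 over the settings and from -0.32 to 0.11 over fits without 1 liver. All genes called numbered 1 by limma, edgeR and 6 further settings, 0 without the trend, with age as a number and in 3-month-old mice alone, 3 with age as a factor (a term that takes up the 2-month-old liver alone), 10 by DESeq2, and 0 to 2 without 1 liver. Directions that turned were *Srebf1* (-0.23) and *Acly* (-0.0033) with age as a factor, and, in 3-month-old mice, *Fasn* (0.18), *Acaca* (0.24), *Elovl6* (0.0040) and *Me1* (0.23). The cause was not tested. Without 1 liver the fold changes ranged from -0.30 to 0.95 for *Srebf1*, from -0.26 to 0.18 for *Acaca*, from -0.38 to 0.095 for *Elovl6*, from -0.54 to 0.0078 for *Me1* and from -1.15 to 0.041 for *Thrsp*, and kept their sign for *Fasn* (-0.68 to -0.04), *Acly* (0.02 to 0.70) and *Scd1* (0.01 to 0.53). For *Srebf1* with *Scd1*, r was -0.019 centred within genotype, -0.19 without the 2 livers farthest from the median of *Srebf1* and -0.12 without *Rragc* S74N/+ replicate 4. In the same order of the last 2, r was -0.025 and 0.25 with *Acly* and 0.086 and 0.014 with *Me1*. With 4 livers a genotype, the spread between mice limits precision, and for *Srebf1* so does depth, with as few as 19 reads in a liver. No paired analysis was possible because a replicate number only counts the samples of a group and links no mice.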

Other observations

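*Srebf1* shared its order of livers with genes outside the pathway. Its log2 levels correlated at r of at least 0.8 with 256 and at most -0.8 with 188 of 11173 other tested genes, 3.97% in all, against 0.967% for *Scd1*, 1.41% for *Fasn* and 2.57% for *Me1*. No such share was computed for tested genes outside the members, so whether 3.97% is unusual cannot be said. *Rsu1* (0.97), *Wfs1* (0.97), an endoplasmic reticulum membrane protein, and *Nudt9* (0.96) were closest to *Srebf1*, and *Cript* (-0.98), *Ppp2r5a* (-0.96), a phosphatase subunit, and *Nfkbie* (-0.95) were most opposed, all chosen after their values were seen. *Rsu1* stood at 67.1, 59.9, 87.7 and 71.9 in *Rragc*+/+ and at 112, 49.8, 47.9 and 97.1 in *Rragc* S74N/+ livers, so that it too was highest in mutant replicates 1 and 4 and lowest in mutant replicates 2 and 3.

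The first principal component of the 500 most variable genes held 45.9% of their variance and placed the livers at -12.7, -2.77, 10.7 and -34.1 in *Rragc*+/+ and at 25.3, 1.48, -24.1 and 36.3 in *Rragc* S74N/+ replicates 1 to 4. *Srebf1* was the 1 member among those genes. Its r with the component was 0.70, beside 0.35 for *Acly*, 0.34 for *Elovl6*, -0.02 for *Scd1*, -0.28 for *Fasn*, -0.33 for *Thrsp*, -0.38 for *Acaca* and -0.62 for *Me1*. Both 2.5-month-old livers, 1 of each genotype, lay at the negative end.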
